A study of Homo sapiens with 2 samples.

Results

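HNRNPC peaks outside annotated genes are the regions described here: places where an RNA immunoprecipitation peak has its summit, the base of highest signal, in no gene span of the RefSeq annotation. Members were chosen as peaks on chromosomes 1 to 22, X and Y whose summit lay in no gene span of any biotype of build GRCh38. There were 314 such peaks among 23111 on these chromosomes (1.36%, 95% exact binomial interval 1.21 to 1.52%), out of 23148 in the whole list. They were classed by distance to the nearest gene span, with 100 under 1 kb, 171 at 1 to 10 kb and 43 at 10 kb or more.

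The study performed RIP-seq, in which RNA bound to a protein is pulled down from a cell lysate with an antibody and sequenced. Its first group is 1 library immunoprecipitated (IP) with 5 µg of anti-HNRNPC antibody, and its second is 1 input library taken without antibody. Both came from NCI-A549, a widely used line of human non-small cell lung cancer, cultured in Ham's F-12K with fetal bovine serum and antibiotics, and the labels name no other treatment. All values come from peaks called for the IP library, and those of the input itself are not analysed here. A single line and 1 library per group limit what the peaks stand for: no value below has a replicate error, and no test between samples was made. Levels of RNA were not measured in the list, so the identity of the cells was not checked against marker genes.

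HNRNPC is an abundant nuclear protein that coats newly made RNA and binds runs of U, and it is also studied as a reader of N6-methyladenosine. Nuclear RNA includes sequence that never reaches a mature message: transcription by RNA polymerase II continues past the site where the message is cleaved, and many promoters also give short transcripts running the other way. Many long noncoding, small nuclear and precursor RNAs have ends that differ from the annotated span. The peak list carries no strand, so it does not say from which DNA strand the RNA of a peak was made.

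Sequence was at hand for the 300 bases around annotated gene starts (250 before to 50 after, RefSeq, GRCh38.p14), and 14 members (4.46%, 95% interval 2.46 to 7.37%) touched such a window, against 1472 of 22797 peaks with a summit in a gene span (6.46%, 6.14 to 6.78%). All 14 had their summit upstream of the start of each gene whose window they touched. The rule of membership all but fixes this, since it excludes a summit inside the span. The 5 windows below show the bases that lie under 3 of the strongest peaks in such windows, at the lncRNA gene LOC124903558, and at the m6A demethylase gene ALKBH5. They are written 5′ to 3′ along the gene, and capitals mark the bases under the peak.
SRGAP1, chr12:63844450-63844749, plus strand: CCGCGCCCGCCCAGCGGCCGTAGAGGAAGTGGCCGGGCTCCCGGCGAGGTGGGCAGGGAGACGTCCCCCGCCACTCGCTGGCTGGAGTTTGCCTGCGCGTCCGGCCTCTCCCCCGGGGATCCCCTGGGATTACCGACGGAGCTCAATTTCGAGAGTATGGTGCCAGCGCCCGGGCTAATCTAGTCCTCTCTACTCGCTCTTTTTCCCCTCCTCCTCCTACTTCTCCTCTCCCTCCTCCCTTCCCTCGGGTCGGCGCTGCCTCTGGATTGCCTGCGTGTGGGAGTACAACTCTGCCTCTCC
SPRED1, chr15:38252586-38252885, plus strand: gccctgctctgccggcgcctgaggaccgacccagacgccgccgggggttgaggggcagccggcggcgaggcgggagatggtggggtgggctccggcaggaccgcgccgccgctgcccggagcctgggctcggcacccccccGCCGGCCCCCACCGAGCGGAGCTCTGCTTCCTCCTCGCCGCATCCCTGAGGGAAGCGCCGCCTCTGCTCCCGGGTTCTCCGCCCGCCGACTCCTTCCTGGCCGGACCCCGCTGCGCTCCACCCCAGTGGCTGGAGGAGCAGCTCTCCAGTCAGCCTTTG
NR5A2, chr1:200027460-200027759, plus strand: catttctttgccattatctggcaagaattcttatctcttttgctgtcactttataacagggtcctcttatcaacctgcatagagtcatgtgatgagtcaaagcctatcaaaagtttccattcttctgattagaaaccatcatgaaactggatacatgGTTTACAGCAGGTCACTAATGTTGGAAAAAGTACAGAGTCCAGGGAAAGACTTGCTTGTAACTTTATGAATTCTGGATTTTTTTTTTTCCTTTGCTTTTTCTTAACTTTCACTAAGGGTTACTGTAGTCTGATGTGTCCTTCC
LOC124903558, chr15:92809835-92810134, minus strand: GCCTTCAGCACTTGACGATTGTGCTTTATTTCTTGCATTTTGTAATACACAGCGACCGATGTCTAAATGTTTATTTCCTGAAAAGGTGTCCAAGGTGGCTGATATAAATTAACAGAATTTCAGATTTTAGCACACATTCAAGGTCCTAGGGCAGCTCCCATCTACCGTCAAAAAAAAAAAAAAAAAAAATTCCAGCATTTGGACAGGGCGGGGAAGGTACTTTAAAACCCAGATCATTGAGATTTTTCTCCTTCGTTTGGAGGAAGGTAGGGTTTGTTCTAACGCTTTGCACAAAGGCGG
ALKBH5, chr17:18183578-18183877, plus strand: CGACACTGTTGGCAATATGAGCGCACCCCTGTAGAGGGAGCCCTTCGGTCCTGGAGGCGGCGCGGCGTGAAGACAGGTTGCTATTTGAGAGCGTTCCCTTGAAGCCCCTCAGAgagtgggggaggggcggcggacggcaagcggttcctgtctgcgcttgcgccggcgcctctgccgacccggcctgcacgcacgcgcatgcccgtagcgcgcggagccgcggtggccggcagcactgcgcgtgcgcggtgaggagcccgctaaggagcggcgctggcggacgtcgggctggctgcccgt
The capitals cover the whole window at SRGAP1 and LOC124903558, bases 142 to 300 at SPRED1, bases 158 to 300 at NR5A2 and bases 1 to 113 at ALKBH5.

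The windows differed in their letters. TTTTT, searched on either strand with overlapping matches counted, occurred 9 times at NR5A2, where the longest T run was 11 bases, and 17 times at LOC124903558, which holds an A run of 20 bases on the gene's strand. It occurred once at SRGAP1, also under the peak, and was in neither the SPRED1 nor the ALKBH5 window. GGACT, a common form of the m6A context, was searched in the same way and occurred once each at SRGAP1 and NR5A2. Both matches lay on the strand opposite to the gene, where the gene's own strand reads AGTCC. Over the 15 windows touched by members, 6 held TTTTT and 6 held GGACT, against 39.2% and 44.2% of all 35116 windows. Median GC content was 71.0% in the 15 windows and 58.7% in all windows.

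At SRGAP1, a gene of Slit and Robo signalling, the peak at chr12:63844053-63844874 had a fold enrichment of 10.02, the authors' value relative to the caller's background, with its summit 51 bp before the span. At SPRED1, an inhibitor of RAS and MAPK signalling, the peak at chr15:38252727-38253205 had a fold of 10.4 with its summit 30 bp before the span. NR5A2, a nuclear receptor, had a peak at chr1:200027617-200027861 with a fold of 9.48 and a summit 48 bp before the span. All 3 genes also held peaks within their spans, 20 in SRGAP1, 6 in SPRED1 and 9 in NR5A2. By contrast LOC124903558 held none, while its upstream peak at chr15:92809495-92810407 had a fold of 10.6. ALKBH5 had a fold of 4.41 at chr17:18183515-18183690, with its summit 149 bp before the span, and 1 peak inside it.

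A single microRNA hairpin was touched. The peak at chr1:247201035-247202083 covered all 94 bases of MIR3916, chr1:247201967-247202060 on the minus strand, shown here with its mature form in capitals because the peak runs over it:
MIR3916: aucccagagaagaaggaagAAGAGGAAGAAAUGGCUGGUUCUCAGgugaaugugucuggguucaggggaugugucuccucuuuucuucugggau
The fold was 7.97, and the summit lay 251 bp outside the hairpin.

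Peaks outside genes thinned out with distance from genes. Bases under 1 kb from a gene span make up 4.49% of the sequence outside genes and held 100 of the 314 peaks (31.8%, 95% interval 26.7 to 37.3%), whereas bases at 10 kb or more make up 70.3% of it and held 43 (13.7%, 10.1 to 18.0%). Density was 1.58 peaks per Mb under 1 kb (95% exact Poisson interval 1.29 to 1.92), 0.481 at 1 to 10 kb (0.411 to 0.558) and 0.0434 at 10 kb or more (0.0314 to 0.0585). The nearest class was thus 36.4 times as dense as the farthest. Peaks in gene spans, at 13.6 per Mb (13.4 to 13.8), were 8.59 times as dense as the nearest class.

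Within the classes the fall was stepwise. Summits 1 to 249 bp from a span had a density of 2.12 per Mb, and those at 1 to 2 kb had 0.794. The bins at 2 to 5 kb and 5 to 10 kb, at 0.403 (0.304 to 0.525) and 0.439 (0.344 to 0.553), did not differ beyond their counting intervals. At 10 to 20 kb the density was 0.106, and at 50 kb or more it was 0.0122 from 6 peaks. Unsequenced assembly gaps count as sequence outside genes here, which lowers the densities far from genes. Intervals cover counting error only and treat neighbouring peaks as independent, which they are not.

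**Figure D1:**
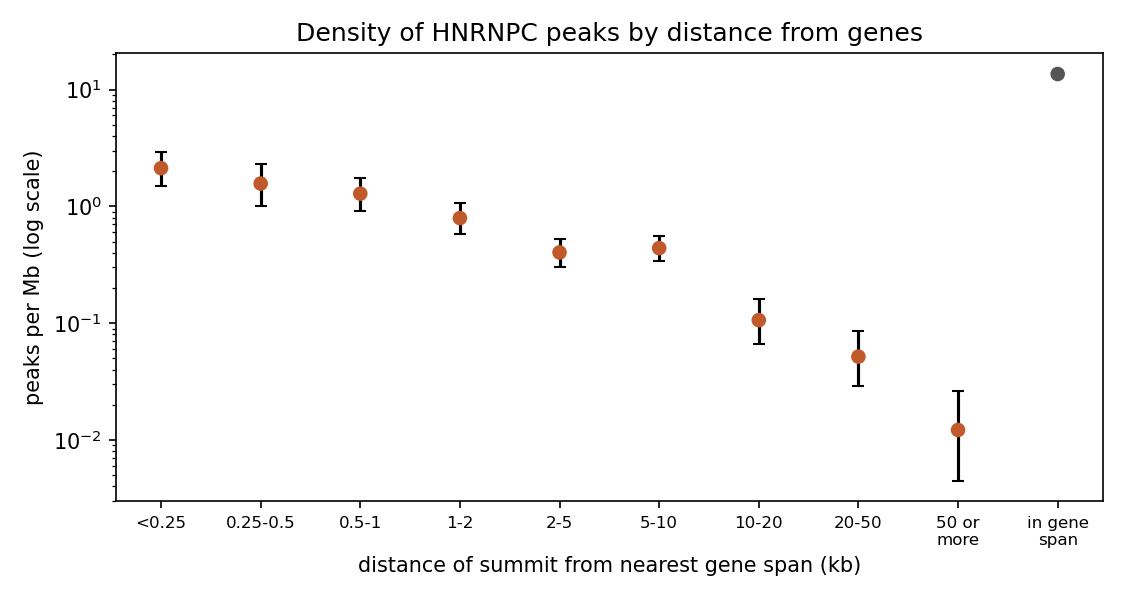
Density of HNRNPC peaks (points, peaks per Mb on a log axis, with 95% exact Poisson intervals) by distance of the summit from the nearest gene span in kb, followed by peaks in gene spans. Density falls from 2.12 per Mb in the nearest bin to 0.0122 per Mb at 50 kb or more, with a level stretch between 2 and 10 kb, and stands at 13.6 per Mb in gene spans.

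The side of the gene differed between the classes. Strand was known for the nearest gene of 186 members, from the promoter and microRNA tables, and not for the other 128. For the 17 members nearest to a microRNA gene, the side is that of the hairpin and not of a longer transcript. At 1 to 10 kb, 81 of 98 peaks (82.7%, 95% interval 73.7 to 89.6%) lay downstream of the nearest gene, where 53.7% of the bases at this distance lie downstream. Density there was 0.874 per Mb downstream (0.694 to 1.09) and 0.212 per Mb upstream (0.124 to 0.340), a ratio of 4.12. These peaks belonged to 35 genes on the downstream and 14 on the upstream side, so with each gene and side counted once the downstream share was 71.4%.

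Under 1 kb the upstream side held more. There 26 of 64 peaks (40.6%, 28.5 to 53.6%) lay downstream, against 54.5% of the bases. The densities were 1.50 per Mb downstream (0.982 to 2.20) and 2.63 per Mb upstream (1.86 to 3.61), intervals that overlap. At 10 kb or more 19 of 24 peaks lay downstream (79.2%, 57.8 to 92.9%), against 56.4% of the bases, and came from 13 genes on that side and 2 upstream. Over all classes the share was 126 of 186 (67.7%), against 55.5% of the bases. Counted once per gene and side it was 53.5%, so the pooled share rested on genes with several downstream peaks.

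**Figure D2:**
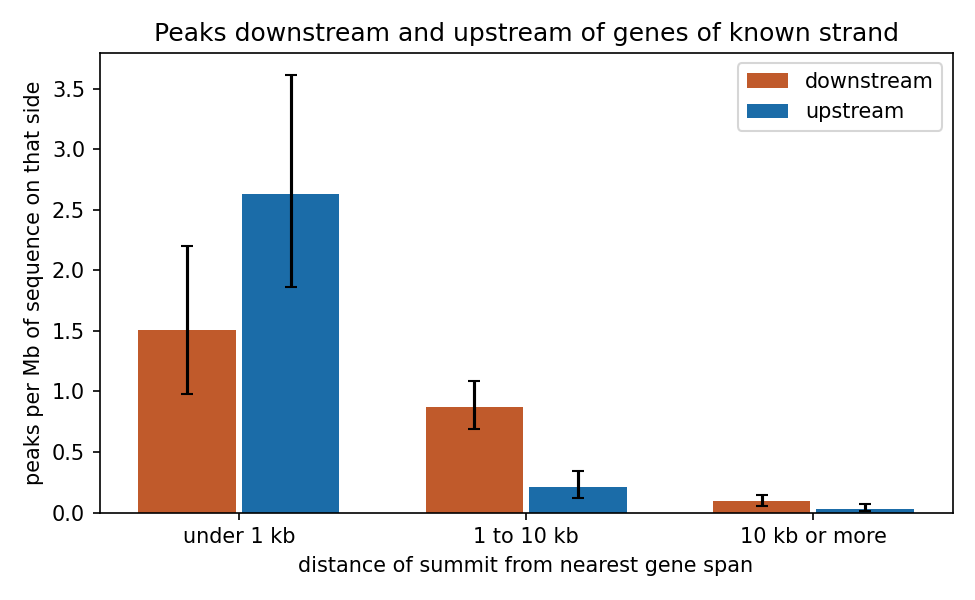
Peaks per Mb of sequence downstream (orange) and upstream (blue) of the nearest gene, for genes of known strand, by distance class, with 95% exact Poisson intervals. Downstream density is 0.874 per Mb against 0.212 upstream at 1 to 10 kb, and 1.50 against 2.63 under 1 kb.

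Gaps between genes that run in the same direction held 59 peaks at 0.394 per Mb (0.300 to 0.508). Gaps between diverging genes held 15 at 0.256 per Mb (0.143 to 0.422), and gaps between converging genes held 13 at 0.163 per Mb (0.0867 to 0.278). These are gaps with both flanking strands known, and the other 227 peaks lay in gaps where at least 1 strand was unknown. Median gap length was 11604.5 bp for same-direction, 424 bp for diverging and 8094.5 bp for converging genes. Among gaps under 20 kb, same-direction ones held 1.18 per Mb (0.785 to 1.71). Diverging ones held 0.815 (0.299 to 1.77) and converging ones 0.650 (0.280 to 1.28), and all these intervals overlap. The same-direction count includes 11 peaks in the gap after MRPS30.

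The 314 peaks lay in 144 gaps between gene spans. These were 0.395% of 36462 gaps, a share that the number of peaks alone keeps low. Of the 144 gaps, 74 held 1 peak each and 13 held 5 or more. The 13 fullest gaps held 92 peaks (29.3%). Summits outside genes were close to other summits of the list: 80.3% (75.4 to 84.5%) had another within 5 kb and 57.6% (52.0 to 63.2%) within 1 kb, against 73.1% and 31.5% for peaks in gene spans and 73.2% within 5 kb for the whole list. The median distance to the next summit was 857 bp outside genes and 1859 bp in gene spans. At the other end, 17 members (5.41%) had no other summit within 100 kb, against 2.66% of peaks in gene spans.

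Runs, here members with another member within 10 kb, took in 237 of the 314 peaks (75.5%, 70.3 to 80.1%) in 66 runs, of which 29 were pairs. The same share was not computed for peaks in gene spans, and 73.2% of all peaks had another summit within 5 kb. For 42 of the 66 runs no peak in a gene span lay within 10 kb of the run. The 11 runs of 6 or more peaks held 83 members over 2674 to 10922 bp each, with median folds from 4.72 to 6.54, and 8 of these 11 had no genic peak within 10 kb.

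The fullest run followed MRPS30, which encodes a protein of the mitochondrial ribosome. The gene spans chr5:44808947-44815514 on the plus strand and held no peak, while 11 peaks lay downstream of it, 210 to 10996 bp beyond its end. Their folds were 6.34, 8.59, 5.70, 4.98, 6.12, 5.75, 4.62, 5.42, 4.78, 5.01 and 5.45 in order of distance. The highest was the second, at chr5:44816243-44816318. The IP fragments inferred over the summits numbered 31 there and from 10 to 25 at the others, with the 4 farthest peaks at 13 or fewer.

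PBDC1 showed a similar layout. Its span, chrX:76173062-76178314 on the plus strand, held no peak, and 9 peaks lay downstream, 2118 to 13040 bp beyond its end. Folds were 5.81, 6.31, 7.45, 7.36, 5.50, 6.35, 7.24, 5.23 and 4.86 in order of distance. The third, at chrX:76183523-76185730, was 2208 bp wide and the highest of the run.

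PPIL4, a peptidyl-prolyl isomerase gene on the minus strand (chr6:149504495-149546043), held 3 peaks and had 7 more downstream, 224 to 5891 bp beyond its end. Their folds, nearest to the gene first, were 7.63, 5.18, 6.35, 5.59, 6.43, 7.34 and 7.72. The first and the last of these were the highest, so fold did not fall along the run.

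ALYREF, an adaptor for the export of mRNA from the nucleus, spans chr17:81887835-81891587 on the minus strand and held no peak, but had 6 peaks 2025 to 7959 bp downstream. Their folds, nearest first, were 3.76, 6.39, 5.85, 7.24, 8.68 and 5.04, over 20 to 27 inferred IP fragments. THOC5, a subunit of the THO complex named here after its values were seen, likewise held no peak and had 4 peaks 1490 to 5505 bp downstream with folds of 5.43, 6.16, 7.12 and 5.15, nearest first.

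Other runs lay beside genes with and without peaks of their own. ITGB1, the beta 1 integrin gene, held 16 peaks and was nearest to 6 members, 4 of them downstream at folds of 5.86 to 6.54 and 2 upstream at 6.05 and 5.77. ALG10, a glucosyltransferase gene of N-glycan assembly, held 4 peaks and had 8 members 151 to 5109 bp from its span, with folds from 4.65 to 8.36. The strand of ALG10 was not given in the tables used. Between EDN1, the endothelin-1 gene, and the pseudogene SUMO2P12 lay 6 peaks with folds of 4.98, 5.67, 5.27, 6.60, 7.31 and 7.31, and neither flank held a peak. Between XRCC5, the Ku80 gene of DNA repair, and LINC01963 a run of 6 had folds from 4.25 to 7.92, again with no peak in either flank.

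**Figure D3:**
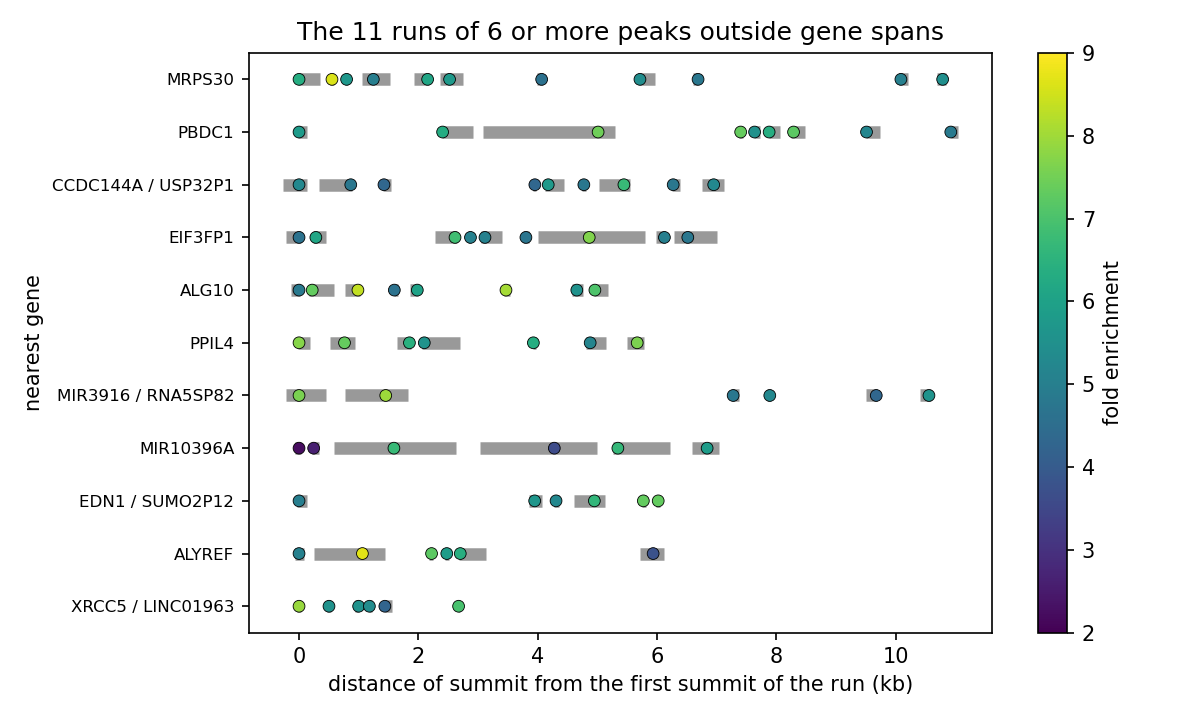
The 11 runs of 6 or more peaks, each row named by its nearest gene or genes; the x axis is the distance of each summit from the first summit of the run in kb, in order of chromosome position, grey bars are peak widths and the colour of each point is the fold. The MRPS30 and PBDC1 runs extend over 10786 and 10922 bp, and the lowest folds, 2.23 and 2.62, are the first points of the MIR10396A row.

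Several runs lay in repeated parts of the genome, where reads of near-identical copies can be shared or split between places and values are uncertain. On chromosome 21, 19 of 20 members had their summit below 11 Mb, on the short arm, whose sequence is much repeated. Near MIR10396A 6 peaks had folds of 2.23, 2.62, 6.72, 3.60, 6.66 and 5.84 at 712 to 7551 bp. The first of these had the most inferred IP fragments of any member, 69, and also the highest inferred control level, 16. Near the pseudogene EIF3FP1 9 peaks had folds from 4.63 to 7.67. The strongest member at 10 kb or more, with a fold of 11.6 at chr21:6722107-6722754, lay 51951 bp from LOC102724701, a lncRNA gene that held 13 peaks.

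Genes with near copies elsewhere in the genome gave like cases. Between CCDC144A and USP32P1 on chromosome 17, 9 peaks had folds from 4.30 to 6.73. Near the NPIPB genes 4 members had folds from 4.21 to 5.76, and near the SMG1 pseudogenes 3 had 4.29 to 6.88, both families picked after their values were seen. Leaving out the 45 members nearest to the genes of these families, to the U1 and U3 genes and to MIR10396A, EIF3FP1 and LOC102724701 left 269 peaks with a median fold of 5.43, against 5.40 for all 314, and 195 of them in runs.

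Small RNA genes, 3764 of the 59679 gene spans, were the nearest gene of 29 of the 314 members. Their median fold was 5.85 against 5.40 for all members. The U3 snoRNA genes, whose product acts in ribosomal RNA processing, accounted for 7 of these near 4 SNORD3 genes, all within 851 bp. Their folds were 9.88 and 4.28 at SNORD3B-1, 6.21 and 6.12 at SNORD3D, 7.73 and 4.71 at SNORD3A and 9.92 at SNORD3C. The variant U1 snRNA genes RNVU1-18, RNVU1-14 and RNVU1-27 each had 1 member 101 to 150 bp away, with folds of 5.76, 8.67 and 8.19, and none of the 3 spans held a summit. U3 and U1 genes have many near-identical copies, so these values are uncertain too.

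The miR-30 genes MIR30A and MIR30C2, which lie near each other on chromosome 6, were nearest to 7 members with folds from 3.82 to 9.16 and held no summit. The highest lay at chr6:71403626-71404314, 309 bp upstream of MIR30A, with 17 inferred IP fragments. This peak also lay 3934 bp downstream of LINC00472, a lncRNA gene on the same strand that held 12 summits. The 4-member run at MIR30A and LINC00472 had 8 genic peaks within 10 kb.

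Zinc finger genes named ZNF, 701 of the 59679 gene spans, were the nearest gene of 17 of the 314 members. These lay at 10 genes, of which 9 genes and 15 members were protein-coding. Of these 15, 9 lay downstream and 4 upstream, where 126 and 60 of all members did. For 9 of the 15 the nearest gene held a peak, where this was so for 99 of all 176 members next to a protein-coding gene. The strongest lay downstream of ZNF460 at chr19:57297077-57303314, 6238 bp wide with a fold of 10.8 and 41 inferred IP fragments, and 2 more with ZNF460 as nearest gene followed it at folds of 5.19 and 3.02. ZNF573 held no peak and had 3 members downstream at 4.79, 4.79 and 4.29, nearest first. The median over the 17 was 4.79. Histone genes and their neighbours by name, 132 spans, were nearest to 3 members, with folds of 3.90 and 6.63 at H2BC6-AS1 and 4.79 at H1-12P. No member had HNRNPC or any of E2F1 to E2F8 as its nearest gene.

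The median fold was 5.40 (quartiles 4.79 and 6.65) for the 314 members, against 5.76 (4.79 and 7.22) for peaks in gene spans. By class it was 5.76 under 1 kb, 5.42 at 1 to 10 kb and 5.27 at 10 kb or more. A fold of 8 or more was reached by 28 members (8.92%, 6.01 to 12.6%), against 18.9% of peaks in gene spans and 18.7% of the whole list. Of these 28, 18 lay under 1 kb, 9 at 1 to 10 kb and 1 at 10 kb or more.

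The 2 highest folds lay under 1 kb from a gene. ERBIN, an adaptor of the receptor ERBB2, had the strongest member at chr5:65925769-65926836, with a fold of 18.4, 36 inferred IP fragments and rank 48 in the whole list. This peak reached into the ERBIN span, which held 25 summits. MED13, a subunit of the Mediator kinase module, followed with 13.5 at chr17:62065475-62065943, 482 bp outside a span with 36 summits. RASSF2, a RAS association domain gene, had 11.6 at chr20:4823398-4823638 with its summit 2 bp outside the span, the nearest of all members. EFNA5, which encodes an ephrin ligand, had 10.9 at chr5:107671178-107672236, 935 bp upstream. Among the 10 highest folds under 1 kb, 7 peaks touched a gene span, 8 had a nearest gene with a summit, and 6 lay upstream with the strand unknown for the other 4.

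The 10 highest at 1 to 10 kb had folds from 7.92 to 10.8. After ZNF460 came BCL3, a nuclear member of the I-kappa-B family, with 9.93 at chr19:44738504-44738935, 8969 bp upstream of a span with no summit. POMK, a protein O-mannose kinase gene, had the widest member, 7711 bp at chr8:43122146-43129856, with a fold of 9.69. The 10 highest at 10 kb or more ranged from 6.24 to 11.6. A peak upstream of MIR31HG, a lncRNA gene with 18 summits, had 6.24 at chr9:21590888-21591460, 31628 bp away.

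**Figure D4:**
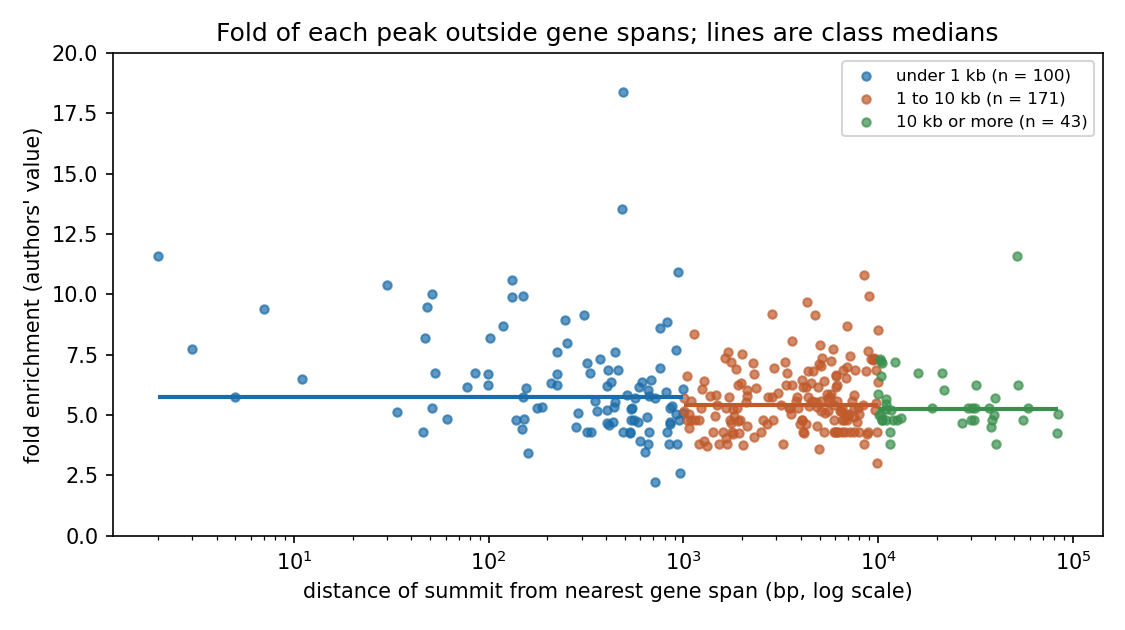
Fold enrichment of each of the 314 peaks (the authors' value) against the distance of its summit from the nearest gene span (bp, log axis), coloured by class, with horizontal lines at the class medians of 5.76, 5.42 and 5.27. The 2 highest points, 18.4 and 13.5, lie under 1 kb.

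Peaks that touched a gene span with another part stood higher. The 29 such members had a median fold of 6.73 (95% order-statistic interval 5.76 to 9.38) and a median width of 437 bp. For the 285 that touched none the median fold was 5.27 (5.23 to 5.56) and the median width 171 bp. Touching a span from a summit outside it calls for a wide peak or a summit near the gene. The choice of these 29 members thus bears on their width and distance, and the median fold of all members under 1 kb was 5.76. Members were wider than genic peaks, with a median of 193 bp (quartiles 100 and 361 bp) against 124 bp (80 and 197 bp), and 19 (6.05%, 3.68 to 9.29%) were 1000 bp or wider, against 2.48% of peaks in gene spans and 2.53% of the list. A stricter list shifted both medians: with q of 0.001 or less, 239 members remained with a median fold of 5.85 and a median width of 223 bp.

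Whole IP fragments and the control level at each summit could be inferred from fold and p, and the deposited p of all 23148 peaks could be computed back from them. Members had a median of 12 IP fragments over the summit (quartiles 9 and 17), against 15 (10 and 21) for peaks in gene spans. The class medians were 14 under 1 kb, 12 at 1 to 10 kb and 10 at 10 kb or more. The median control level was 0.188 for members and 0.141 for peaks in gene spans, so by the median members did not have the lower control. The control level was under 1 fragment at 255 members (81.2%, 76.4 to 85.4%), against 69.2% of peaks in gene spans. At such summits the fold follows IP coverage over a nearly empty background, and its part in the folds above was not tested. Downstream members had a control level under 1 in 70.6% of cases (61.9 to 78.4%) and upstream members in 90.0% (79.5 to 96.2%).

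**Figure D5:**
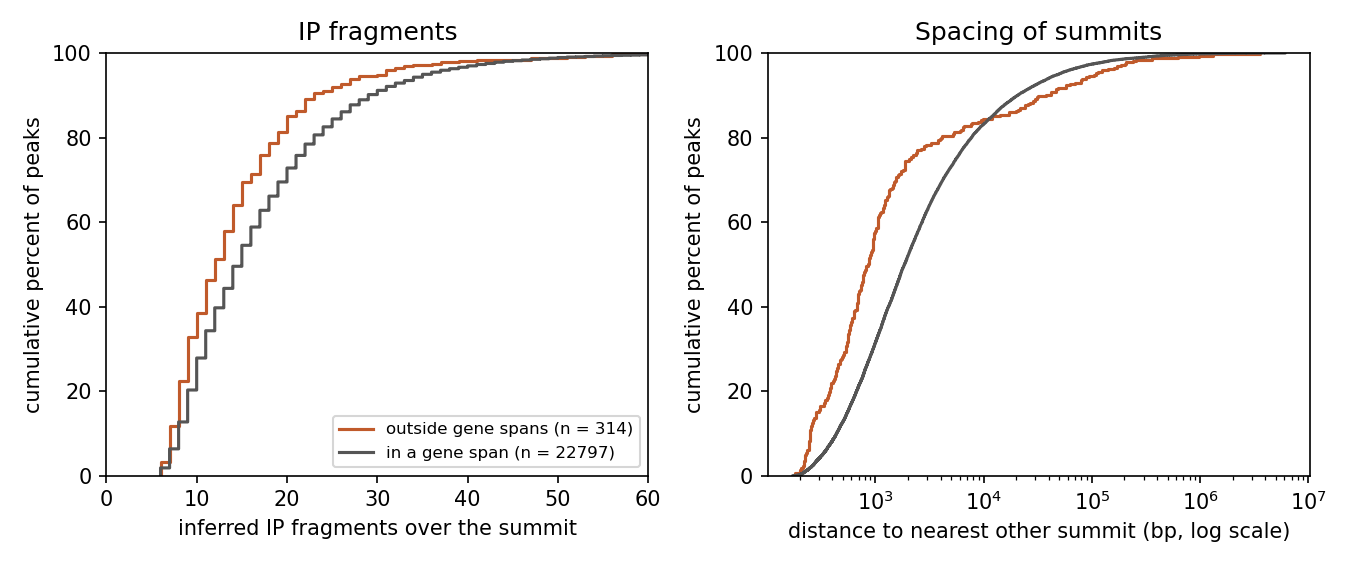
Cumulative percent of peaks outside gene spans (orange, n = 314) and in gene spans (grey, n = 22797) by inferred IP fragments over the summit, with the axis ending at 60, and by distance to the nearest other summit (bp, log axis). Peaks outside genes have fewer IP fragments (median 12 against 15) and closer neighbours (median 857 against 1859 bp), while the spacing curves cross near 10 kb.

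Genes nearest to these peaks held peaks themselves more often than gene spans at large, though for most members the nearest gene held none. The nearest gene held a summit for 136 of 314 members (43.3%, 37.8 to 49.0%), against 7.21% of all 59679 gene spans. The share was 63.0% under 1 kb (52.8 to 72.4%), 37.4% at 1 to 10 kb (30.2 to 45.1%) and 20.9% at 10 kb or more. These intervals treat members as independent, though members of a run can share a nearest gene. With each nearest gene counted once the share over all classes was 47.1%, and this was not computed by class. For members next to a protein-coding gene the share of members was 99 of 176 (56.3%), against 18.4% of protein-coding spans. For those next to a lncRNA gene it was 24 of 63 (38.1%), against 2.76% of lncRNA spans. Expression was not measured, and genes near a peak were not matched for it or for length of span. For 143 members (45.5%) neither flanking gene held a peak.

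In all, 155 genes were the nearest gene of a member, and 82 of them held no summit. Protein-coding genes were nearest to 176 members (56.1%) at a median distance of 2118 bp, against 33.6% of all gene spans. LncRNA genes were nearest to 63 (20.1%) at 4415 bp, against 30.7% of spans. Pseudogenes were nearest to 38 (12.1%) at 6539 bp, against 26.1%. The shares of spans count genes and not the bases outside genes nearest to each biotype. That share of bases was not computed. The members around the class limits were alike in fold: 5.10 at 998 bp from HMBOX1 and 5.70 at 1007 bp from MRPS30, then 6.35 at 9996 bp from PBDC1 and 5.85 at 10011 bp from LOC105372588. At the edge of genes the nearest peak inside a span, by 2 bp at STX6, had a fold of 6.70, and the nearest outside, by 2 bp at RASSF2, had 11.6.

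Chromosomes differed in how many of their peaks lay outside genes. Chromosomes 17, 19 and 21 held 79 of the 314 members. The share was 8.10% on chromosome 21 (20 of 247), 5.87% on chromosome 19 (21 of 358) and 3.17% on chromosome 17 (38 of 1198), and 0.138% on chromosome 14 (1 of 723). Per Mb outside genes, chromosome 17 held 1.24 and chromosome 19 held 0.985, against 0.223 over all chromosomes. These shares and densities rest in part on a few places. On chromosome 17, 9 members lay between CCDC144A and USP32P1, 7 near SNORD3 genes and 6 near ALYREF. On chromosome 21, 19 of 20 lay below 11 Mb.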

How the data were processed

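RIP-seq of A549 cells gave 1 HNRNPC IP library and 1 input library, grouped by the antibody in the labels. Per the submitters' processing notes the tools were HISAT2, MACS2 and bedtools on hg38, with no versions or roles. Whether the input served as control is not given in the sources used here. The deposited list holds per peak a score, a fold (a ratio over the caller's background) and −log10 values for p and q. Read totals are not in it. IP fragments were inferred by taking fold as (sk + 1)/(c + 1) and p as the Poisson tail, with k whole fragments, scale s and control level c. With s = 0.535, meaning 1.87 times as many IP as control reads, all 23148 p-values were reproduced within 0.0001 on the −log10 scale. The lowest control level was 0.103.

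Gene spans were 59679 RefSeq spans of GRCh38.p14, without exons. Strand came from promoter windows and microRNA hairpins and was known for 29079 genes. Distances run from the summit, and coordinates are 1-based. Sequence outside genes was taken between the first and last gene of a chromosome, assembly gaps included. The members and lists were chosen with earlier results of these data known. Named members followed a rule: the highest folds per class, the widest, the fullest runs, class limits, promoter windows, and the lists of E2F, HNRNPC, histone, ZNF and small RNA genes; not every one is named. Intervals are 95% exact binomial or Poisson, or order-statistic for medians, and cover counting error only. Scripts were tested on simulated data. Versions were scipy 1.17.1, pandas 2.3.3, numpy 2.4.6, matplotlib 3.10.9 and Python 3.11.15.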

Additional observations from a re-analysis of the deposited data

Results flagged for a closer look

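Peaks also lay on contigs that are not placed on a chromosome and that no comparison above uses. Contig GL000195.1 held 20 peaks with up to 25 inferred IP fragments, GL000205.2 held 7 with a highest fold of 10.4, and KI270744.1 held 7 with a highest fold of 6.73. The gene table places no span on these contigs by name, so whether the peaks lie outside genes was not analysed here.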

How the results depend on the processing

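Over 62 alternative values, 54 stayed within 1.5 times the count or within the counting interval of the value given. Using only protein-coding and lncRNA spans gave 419 peaks outside genes and raised the number at 10 kb or more to 140, since fewer spans are counted. With q of 0.001 or less the median fold was 5.85 and the median width 223 bp. The downstream share over all distances was 57.6% with only protein-coding genes taken as nearest genes and 53.5% with each gene and side counted once. At 1 to 10 kb it was 75.5% and 71.4% under these settings, and under 1 kb it was 39.6% and 37.9%. Taking either flanking gene gave 54.5% of members beside a gene with a peak, and an inferred control level under 2 in place of 1 took in 93.9%. Counting each gene once, leaving out multicopy genes and the downstream shares by class were chosen after seeing the data. The planned use of all contigs was not run, as the gene table names no contig. No paired analysis was possible because each group has 1 library. Depth limits what was called: the fewest inferred IP fragments over any summit was 6.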
